A study of Rattus norvegicus with 6 samples.

Results

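Cyclic nucleotide phosphodiesterases are described here across the nuclei of the rat nucleus accumbens shell. The 10 genes were Pde1a, Pde1b, Pde1c, Pde2a, Pde4b, Pde4d, Pde7a, Pde7b, Pde8b and Pde10a, chosen by their symbols among the 32883 features of the deposited single-nucleus count tables, and each symbol matched 1 feature in all 6 libraries. The study compared male and female adult Long-Evans rats aged 90 to 100 days, with no other treatment or genotype named in the labels. Each library was a pool of shell tissue from 4 animals of 1 sex, with 3 female and 3 male pools (24 animals). A p-value between the sexes therefore measures the spread between pools, not between animals. A p-value between classes of nuclei rests on the spread left within libraries, with 1 estimate per gene shared by all classes in the fit.

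Phosphodiesterases end cAMP and cGMP signals by hydrolysing the cyclic nucleotide. In striatal medium spiny neurons (MSNs), cAMP made after activation of D1 dopamine receptors, or held down by D2 receptors, sets the activity of protein kinase A, and several phosphodiesterase families break it down side by side. Pde10a acts on cAMP and cGMP and is known for its abundance in MSNs. Pde4b, Pde4d, Pde7a, Pde7b and Pde8b act on cAMP, Pde2a is switched on by cGMP, and Pde1a, Pde1b and Pde1c need calcium and calmodulin.

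The RefSeq promoter windows of Pde10a are shown because it is the member best known from MSNs, and they were searched for the cAMP response element (CRE), the motif bound by the cAMP-responsive factor CREB. RefSeq, on build GRCr8, gave windows of 300 bases (250 before and 50 after a gene start) for 7 of the 10 members, 14 windows in all. Capitals mark the CRE core TGACG, or CGTCA where it lies on the other strand. The first Pde10a window lies at chr1:54765619-54765918 and the second at chr1:54501157-54501456, both on the minus strand and written 5′ to 3′.
Pde10a start 1: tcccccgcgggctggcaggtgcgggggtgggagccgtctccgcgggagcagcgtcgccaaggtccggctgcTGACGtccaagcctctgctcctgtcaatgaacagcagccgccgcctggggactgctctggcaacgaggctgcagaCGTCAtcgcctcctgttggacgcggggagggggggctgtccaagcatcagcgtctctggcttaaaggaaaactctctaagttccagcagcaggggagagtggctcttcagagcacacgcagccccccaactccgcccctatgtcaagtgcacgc
Pde10a start 2: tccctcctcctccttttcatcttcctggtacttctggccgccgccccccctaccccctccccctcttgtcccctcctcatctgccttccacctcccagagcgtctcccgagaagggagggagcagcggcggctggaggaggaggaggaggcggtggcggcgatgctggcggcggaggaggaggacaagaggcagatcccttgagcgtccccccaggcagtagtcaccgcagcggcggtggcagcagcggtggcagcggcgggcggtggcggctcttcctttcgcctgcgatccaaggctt
The first window held 2 core motifs, 1 on each strand, and the second held 0. Among the 14 member windows, 3 held the core on either strand (21.4%): the first Pde10a window and 2 of the 5 Pde4d windows. Of all 33469 windows in the RefSeq table, 21.2% held it. A match is a run of letters and says nothing about binding in these nuclei. RefSeq windows for Pde1b, Pde7a and Pde7b were not used here.

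The files held 41974 barcodes, of which 34218 passed the filters with 186807902 UMIs (unique molecular identifiers, each a counted RNA molecule). The libraries kept 2762 to 14291 nuclei, with a median of 3061 to 4812 UMIs. Of 41760 distinct barcodes, 213 occurred in more than 1 library. Nuclei were clustered without any phosphodiesterase gene, and clusters were named from at least 3 higher markers of a list, so a name with "-like" says no more than that. The 12 classes described had at least 20 nuclei in each library. They were D1-like MSNs (5092 nuclei), D2-like MSNs (3730), cluster 6 (1582), Drd3-like neurons (1194), Chst9/Grm8-like neurons (1338), Sst/Npy-like interneurons (406), Pvalb-like interneurons (297), septal-like neurons (1574), pallidal-like neurons (1284), astrocyte-like (2477), oligodendrocyte-like (3477) and OPC-like nuclei (885), the last being oligodendrocyte precursors. The septal-like and pallidal-like classes carried markers of regions next to the shell. Cluster 6 had 3 of the 6 markers of eccentric MSNs raised (Otof, Casz1 and Tshz1), but its leading genes were Mdfic, Eya2, Plxdc1 and Foxp2, of which the last is on the Drd3 neuron list, so it is called by its number. Summed over a list, the markers were highest in their own class for 8 of the 12 lists. The D1 list summed to a median of 746 CPM in Drd3-like neurons against 481 in D1-like MSNs, and the septal list to 1025 in Drd3-like against 397 in septal-like neurons. Septal-like neurons ranked 4 of 12 on their own list, with Pvalb-like (697) and Sst/Npy-like interneurons (482) also above them. The Drd3 list summed to 4341 CPM in cluster 6 and 4070 in Chst9/Grm8-like neurons against 2610 in Drd3-like neurons, which ranked 3 of 12. The eccentric list summed to 1075 in Drd3-like neurons against 519 in cluster 6. Among their leading genes, D1-like MSNs and Drd3-like neurons likewise held no marker of their own lists. By the wording of their labels, male pool 1 and female pool 3 (set A) stood apart from the other 4 libraries (set B), and their values did so too. Set A had 2.28% and 1.55% of barcodes over the mitochondrial limit and kept 8162 and 14291 nuclei. In set B these were 13.1 to 40.7% and 2762 to 3071 nuclei. Glutamatergic-like nuclei, not among the 12 classes, numbered 403 and 1526 in set A and 0 to 2 per library in set B.

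Levels are CPM, the UMIs of a gene scaled by all UMIs of its class in a library (the unit of the level plots). In 3' counts from nuclei the level of a gene also depends on its length and introns, so levels are compared between classes and not between genes. Highest and lowest places, here and below, are among the classes described. These leave out clusters without a class name and named classes with fewer than 20 nuclei in a library. Of the 10 members, 4 had their highest mean in D1-like or D2-like MSNs: Pde10a, Pde1b and Pde2a in D2-like and Pde1c in D1-like MSNs. Pde7b was highest in cluster 6. Pde1a and Pde8b were highest in Drd3-like neurons, Pde4d in Chst9/Grm8-like neurons, Pde7a in pallidal-like neurons and Pde4b in oligodendrocyte-like nuclei. Among the groups left out, an unnamed cluster of 501 nuclei had higher means for Pde10a (3806 CPM) and Pde7b (2819 CPM). Another of 250 nuclei did for Pde4d (3153 CPM), and committed OPC-like nuclei did for Pde1c (532 CPM). Microglia-like nuclei had a Pde7a mean of 148 CPM against 147 CPM in pallidal-like neurons. The other members were not higher in these groups. Astrocyte-like nuclei had the lowest mean for 5 members (Pde10a, Pde1a, Pde1b, Pde1c and Pde2a), and Drd3-like neurons for Pde4b and Pde4d. That place did not hold by library for all: oligodendrocyte-like nuclei stood above astrocyte-like nuclei in only 1 of 6 libraries for Pde1b and 2 of 6 for Pde1a. For Pde1c the Chst9/Grm8-like mean was 29.2 against 29.0 CPM, above in 4 of 6 libraries.

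**Figure D1:**
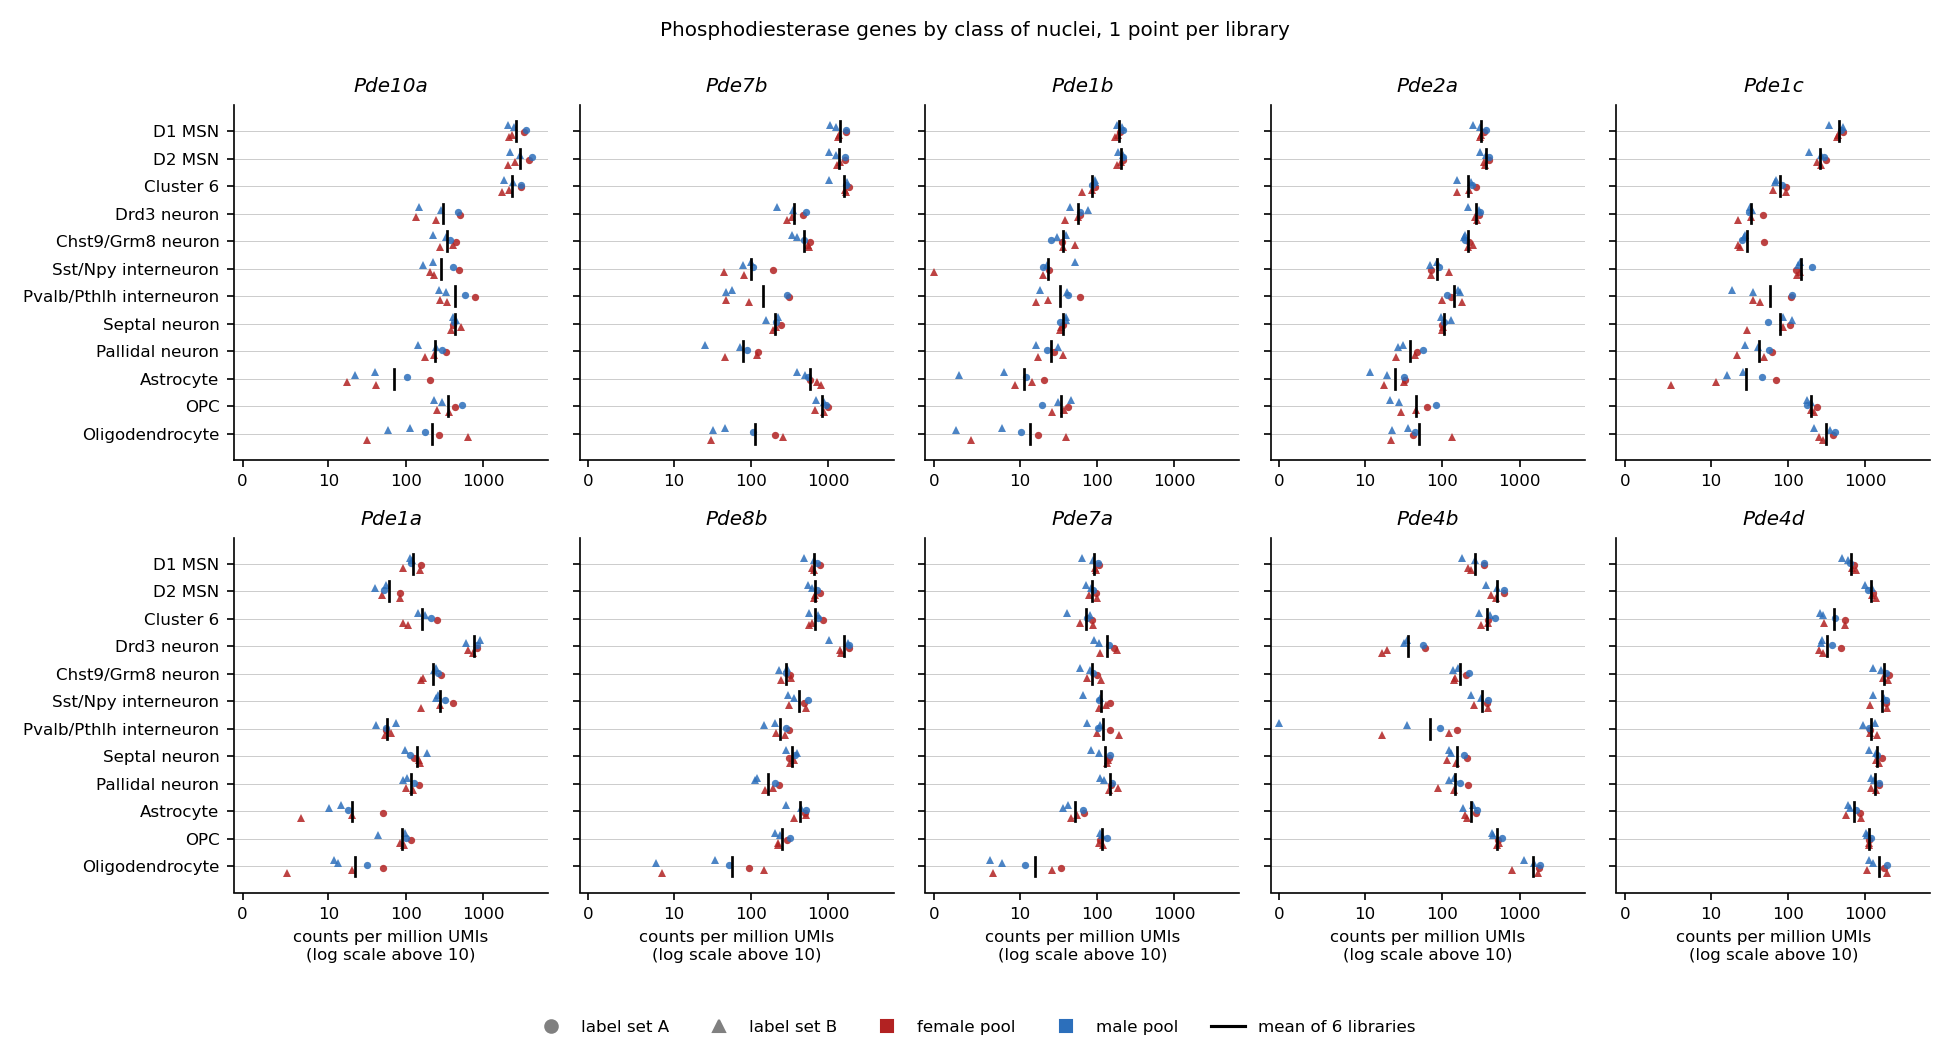
Level of each member (CPM, log scale above 10) in the 12 classes. Each point is 1 library (circles for set A, triangles for set B, red for female and blue for male pools) and the black bar is the mean of 6 libraries. Pde10a was 1769 CPM or more in every library of D1-like MSNs, D2-like MSNs and cluster 6 and at most 799 CPM elsewhere, while Pde4b peaked in oligodendrocyte-like nuclei.

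Pde10a, the dual cAMP and cGMP phosphodiesterase of the striatum, ran from 2116 through a median of 2802 to 4275 CPM in D2-like MSNs. It ran from 2127 through 2446 to 3567 CPM in D1-like MSNs and from 1769 through 2320 to 3125 CPM in cluster 6. These 3 ranges overlapped, but within a library D1-like MSNs stood above cluster 6 in 6 of 6, and D2-like above D1-like in 5 of 6. The next class, septal-like neurons, had 435 ± 50.6 CPM (SD, n = 6 libraries), and from there to oligodendrocyte-like nuclei (217 ± 227 CPM) each neighbour in the order was above the next in only 3 to 5 of 6 libraries. Drd3-like neurons had 302 ± 160 CPM, with D1-like MSNs at 8.94 times that mean and D2-like MSNs at 10.1 times. With each nucleus thinned to 1000 UMIs, 82.7% of D1-like MSNs (95% Wilson interval 81.6 to 83.7%) had a Pde10a UMI, against 7.86% (6.83 to 9.03%) of astrocyte-like nuclei. The unthinned shares were 97.4% and 17.4%, at medians of 5474 and 2116 UMIs. Wilson intervals cover counting error only.

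Pde7b, a cAMP phosphodiesterase, was highest in the same 3 classes, with 1593 ± 297 CPM in cluster 6, 1392 ± 253 in D1-like and 1367 ± 235 in D2-like MSNs. The order among these did not hold beyond the spread, since each stood above the next in 4 of 6 libraries. It was then high in glia: OPC-like nuclei ran from 670 through 868 to 975 CPM and astrocyte-like nuclei from 397 through 558 to 791 CPM. OPC-like nuclei stood above astrocyte-like nuclei in 5 of 6 libraries and above oligodendrocyte-like nuclei in 6 of 6, at 7.43 times their mean. Pallidal-like neurons were lowest, with 78.2 ± 38.3 CPM.

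The calcium and calmodulin dependent genes had 3 different patterns. Pde1b, the member of the family known from striatal neurons, ran from 183 to 220 CPM in D2-like and from 173 to 220 CPM in D1-like MSNs. It was 86.6 ± 11.97 CPM in cluster 6, below both in 6 of 6 libraries, and 56.7 ± 13.4 CPM in Drd3-like neurons. In the other 8 classes its mean was 11.4 to 36.9 CPM. Pde1c ran from 335 through 465 to 518 CPM in D1-like MSNs. It was second in oligodendrocyte-like nuclei (314 ± 74.9 CPM), then 260 ± 42.8 CPM in D2-like MSNs and 200 ± 22.5 CPM in OPC-like nuclei. Each of the first 3 stood above the next in 6 of 6 libraries. Cluster 6 had only 79.2 ± 13.3 CPM. Pde1a ran from 604 through 786 to 913 CPM in Drd3-like neurons, above every library of every other class. Sst/Npy-like interneurons came second with 280 ± 82.7 CPM, cluster 6 had 164 ± 62.9, D1-like 125 ± 25.3 and D2-like 60.9 ± 18.6 CPM.

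Pde2a, whose cAMP hydrolysis is raised by cGMP, ran from 306 through 361 to 404 CPM in D2-like MSNs. D1-like MSNs followed with 314 ± 38.7 CPM, Drd3-like neurons with 275 ± 33.9 and cluster 6 with 213 ± 49.3, and each stood above the next in 6 of 6 libraries. The 3 glial classes and pallidal-like neurons had means of 24.0 to 49.8 CPM.

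Pde8b, a high-affinity cAMP phosphodiesterase, ran from 1014 through 1618 to 1869 CPM in Drd3-like neurons. That class stood above cluster 6 and both MSN classes in 6 of 6 libraries, at 2.32 times the cluster 6 and 2.43 times the D1-like mean. Cluster 6, D2-like and D1-like MSNs had 675 ± 112, 661 ± 80.6 and 646 ± 99.1 CPM and did not differ beyond the spread, with 4 of 6 libraries in that order at each step. Astrocyte-like nuclei had 433 ± 94.4 CPM and oligodendrocyte-like nuclei were lowest with 56.7 ± 53.9 CPM. Pde7a, the cAMP-specific paralogue of Pde7b, ran in neurons from 72.2 ± 18.1 CPM in cluster 6 to 147 ± 27.8 CPM in pallidal-like neurons. Most neighbours in its order changed places between libraries, and oligodendrocyte-like nuclei (15.6 ± 11.8 CPM) were below astrocyte-like nuclei (52.5 ± 13.1 CPM) in 6 of 6.

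Pde4b and Pde4d encode cAMP phosphodiesterases inhibited by rolipram. Pde4b ran from 798 through 1633 to 1861 CPM in oligodendrocyte-like nuclei, above every other class in 6 of 6 libraries. OPC-like nuclei (510 ± 57.5 CPM) and D2-like MSNs (507 ± 105 CPM) came next and changed places between libraries. At the other end, Drd3-like neurons had 36.1 ± 17.9 CPM, and D1-like MSNs stood at 7.34 times that mean. In thinned nuclei 77.0% of oligodendrocyte-like (75.5 to 78.4%) and 4.13% of Drd3-like nuclei (3.13 to 5.43%) had a Pde4b UMI (unthinned 87.1% and 11.0%, medians of 1713 and 2738 UMIs). Among the described classes, Pde4d was the most evenly spread member, 5.39 times higher in the highest than in the lowest class. Microglia-like nuclei, not among them, had only 80.0 CPM. Chst9/Grm8-like neurons (1739 ± 278 CPM), Sst/Npy-like interneurons (1628 ± 330), oligodendrocyte-like nuclei (1492 ± 390) and septal-like neurons (1418 ± 181) led, and each stood above the next in 4 or 5 of 6 libraries. Drd3-like neurons (323 ± 89.8) and cluster 6 (392 ± 135) were lowest.

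The first comparison set D1-like against D2-like MSNs of the same libraries. Pde1a and Pde1c were higher in D1-like MSNs, and Pde4b and Pde4d were higher in D2-like MSNs. These 4 of 10 members passed the test, where 7.39% of the 11788 genes tested did (edgeR quasi-likelihood test on summed UMI counts with library as a block, adjusted p below 0.05). Pde1a was 125 ± 25.3 against 60.9 ± 18.6 CPM, a log2 fold change of 1.06 (SE 0.16, edgeR adjusted p = 5.81e-07). In each library the D1-like level was 1.81 to 2.996 times the D2-like level. Pde1c was 453 ± 68.3 against 260 ± 42.8 CPM (log2 0.81, SE 0.12, edgeR adjusted p = 3.67e-07), with ratios of 1.61 to 1.91. Pde4b ran from 180 to 346 CPM in D1-like and from 362 to 634 CPM in D2-like MSNs (log2 -0.95, SE 0.13, edgeR adjusted p = 1.17e-07). Pde4d ran from 496 to 767 CPM in D1-like and from 991 to 1371 CPM in D2-like MSNs (log2 -0.89, SE 0.11, edgeR adjusted p = 1.83e-10). For all 4 the ranges of the 6 libraries did not overlap, which held for 3.11% of the features with a mean of at least 20 CPM. The Pde1c call was lost in set A alone (log2 0.72, edgeR adjusted p = 0.0566) and without the library block (0.79, adjusted p = 0.167), and held in set B alone (0.83, adjusted p = 2.29e-07).

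Of the 4, Pde4b, Pde1c and Pde4d were also among the highest in oligodendrocyte-like nuclei (ranks 1, 2 and 3 of the 12 classes), and Pde1c differed between the MSN classes in the opposite direction to the other two. The oligodendrocyte markers were therefore read in the same MSNs. The 6 markers, none of them at 0, summed to 163 to 303 CPM in D1-like and 178 to 275 CPM in D2-like MSNs, against 10670 to 16828 CPM in oligodendrocyte-like nuclei. The part of oligodendrocyte RNA in the MSN levels and in their differences was not tested.

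The other 6 members did not pass between D1-like and D2-like MSNs. Pde10a gave -0.15 (SE 0.24), Pde7b 0.03 (SE 0.21), Pde8b -0.04 (SE 0.16), Pde1b -0.07 (SE 0.07) and Pde7a 0.10 (SE 0.08) on the log2 scale, with edgeR adjusted p-values of 0.711 to 0.995. Pde2a was lower in D1-like MSNs in 6 of 6 libraries, with 0.82 to 0.91 times the D2-like level (log2 -0.21, SE 0.11, edgeR adjusted p = 0.336). These standard errors come from the spread shared by all classes, and Pde7b, with an SE of 0.21, had ratios of 0.97 to 1.05.

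**Figure D2:**
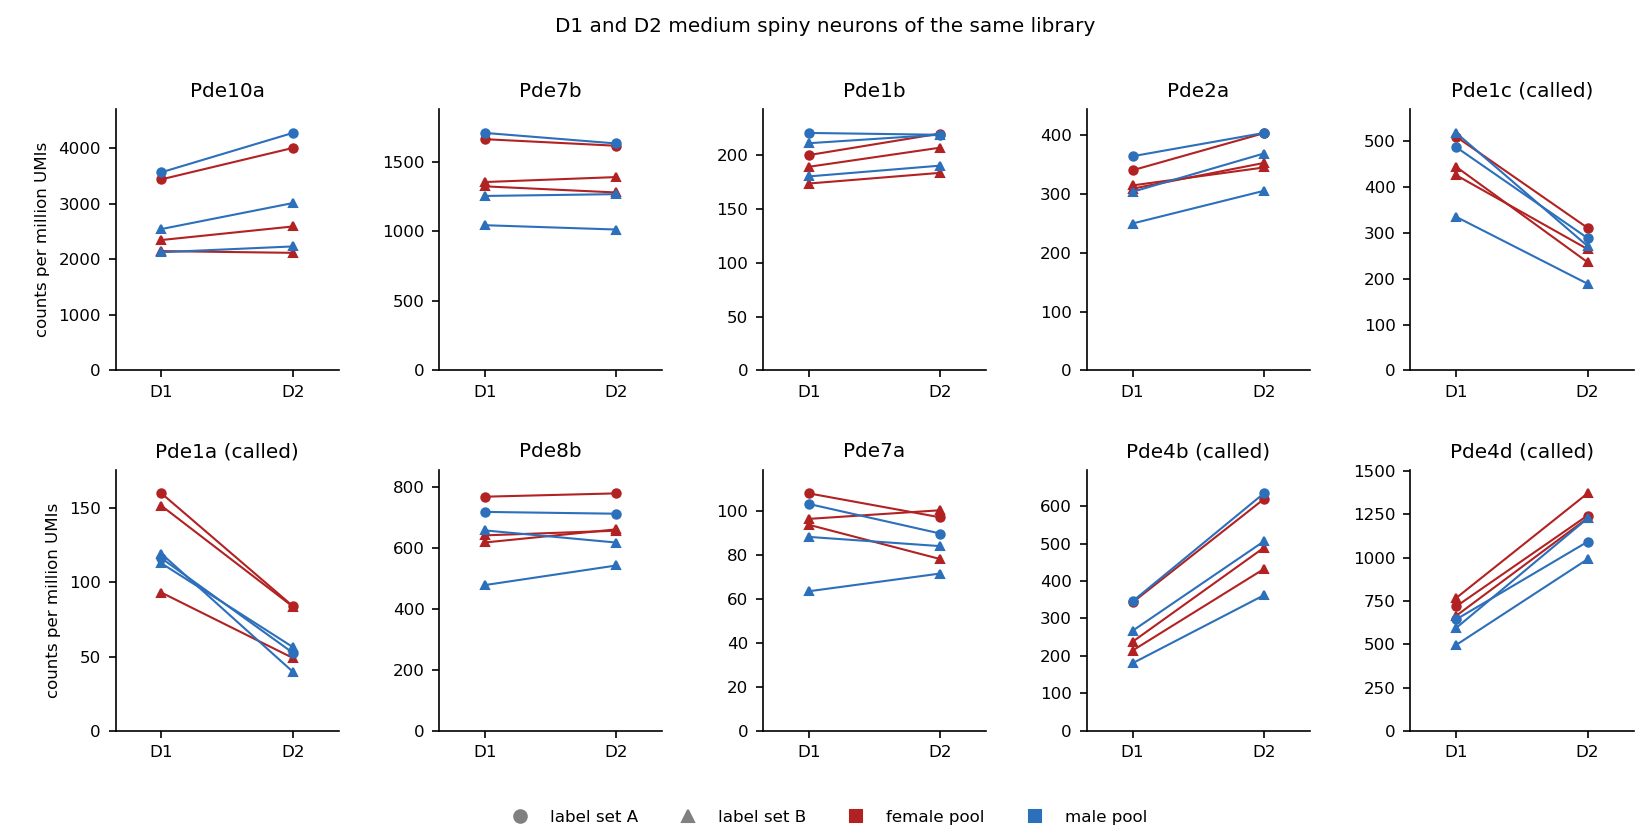
Level of each member (CPM, axes from 0) in D1-like and D2-like MSNs; each line joins the 2 classes of 1 library, coloured by sex with circles for set A and triangles for set B. All 6 lines fell from D1 to D2 for Pde1a and Pde1c and rose for Pde4b and Pde4d, the 4 panels marked as called.

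Cluster 6 was then set against the mean of D1-like and D2-like MSNs. Pde1c, Pde1b, Pde4d, Pde2a and Pde7a were lower in cluster 6 and Pde1a was higher. These 6 of 10 members passed, where 21.4% of genes did. Pde1c had the largest difference of the members, 79.2 ± 13.3 against 357 ± 54.1 CPM (log2 -2.18, SE 0.15, edgeR adjusted p = 6.11e-19). Pde1b was 86.6 ± 11.97 against 201 ± 16.7 CPM (log2 -1.23, SE 0.09, edgeR adjusted p = 1.48e-21) and Pde4d 392 ± 135 against 920 ± 110 CPM (log2 -1.20, SE 0.10, edgeR adjusted p = 1e-17). Pde2a gave -0.65 (SE 0.11) and Pde7a -0.31 (SE 0.09, edgeR adjusted p = 0.0104). These 5 were lower in 6 of 6 libraries, but Pde7a lost its call within set A alone (adjusted p = 0.0761), in set B alone (0.0878) and without the library block (0.446). Pde1a gave 1.01 (SE 0.15, edgeR adjusted p = 1.2e-07) and was higher in 5 of 6 libraries. Pde10a (-0.25, SE 0.22), Pde7b (0.20, SE 0.18), Pde8b (0.04, SE 0.14) and Pde4b (0.07, SE 0.12) did not pass.

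D1-like and D2-like MSNs were next set against the mean of Sst/Npy-like and Pvalb-like interneurons. Of the 10 members, 7 were higher and 2 lower in MSNs, where 46.4% of genes passed. Pde7b led with 1380 ± 243 against 120 ± 83.3 CPM (log2 3.49, SE 0.20, edgeR adjusted p = 6.34e-23). Pde10a followed with 2867 ± 777 against 361 ± 170 CPM (log2 3.11, SE 0.21) and Pde1b with 201 ± 16.7 against 28.5 ± 11.3 CPM (log2 2.79, SE 0.12). Pde2a (1.85), Pde1c (1.82), Pde4b (1.23) and Pde8b (1.13) were also higher, and all 7 were so in 6 of 6 libraries. Pde4d was 920 ± 110 against 1408 ± 174 CPM (log2 -0.55, SE 0.08, edgeR adjusted p = 6.79e-09) and lower in 6 of 6 libraries. Pde7a gave -0.28 (SE 0.10, edgeR adjusted p = 0.0125), and was lower in 6 of 6 libraries. It kept its call in 4 of 14 alternative settings, and missed it when female pool 2 (-0.24) or 3 (-0.15), or male pool 2 (-0.24) or 3 (-0.23), was left out. Pde1a, 93.2 ± 21.2 against 169 ± 42.1 CPM, did not pass (log2 -0.38, SE 0.20, edgeR adjusted p = 0.115), though it passed without female pool 1 (-0.51, edgeR adjusted p = 0.0167).

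Against the mean of the 3 glial classes, D1-like and D2-like MSNs were higher for 8 members and lower for Pde4b and Pde4d, so that all 10 passed where 76.0% of genes did. Pde10a was 2867 ± 777 against 214 ± 89.0 CPM (log2 4.12, SE 0.18), Pde1b 201 ± 16.7 against 19.7 ± 7.77 CPM (log2 3.56, SE 0.09) and Pde2a 339 ± 37.6 against 39.6 ± 20.04 CPM (log2 3.20, SE 0.10). Their edgeR adjusted p-values were 9.88e-29, 9.38e-53 and 6.64e-43. Pde7b (1.94), Pde8b (1.93), Pde1c (1.37), Pde1a (1.16) and Pde7a (0.92) were higher by less. Pde4b was 386 ± 86.5 against 739 ± 153 CPM (log2 -0.63, SE 0.09, edgeR adjusted p = 1.11e-08), lower in 6 of 6 libraries. Pde4d gave -0.27 (SE 0.07, edgeR adjusted p = 0.000417), lower in 5 of 6, and missed the threshold with no filter on low counts (-0.14, adjusted p = 0.0693).

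**Figure D3:**
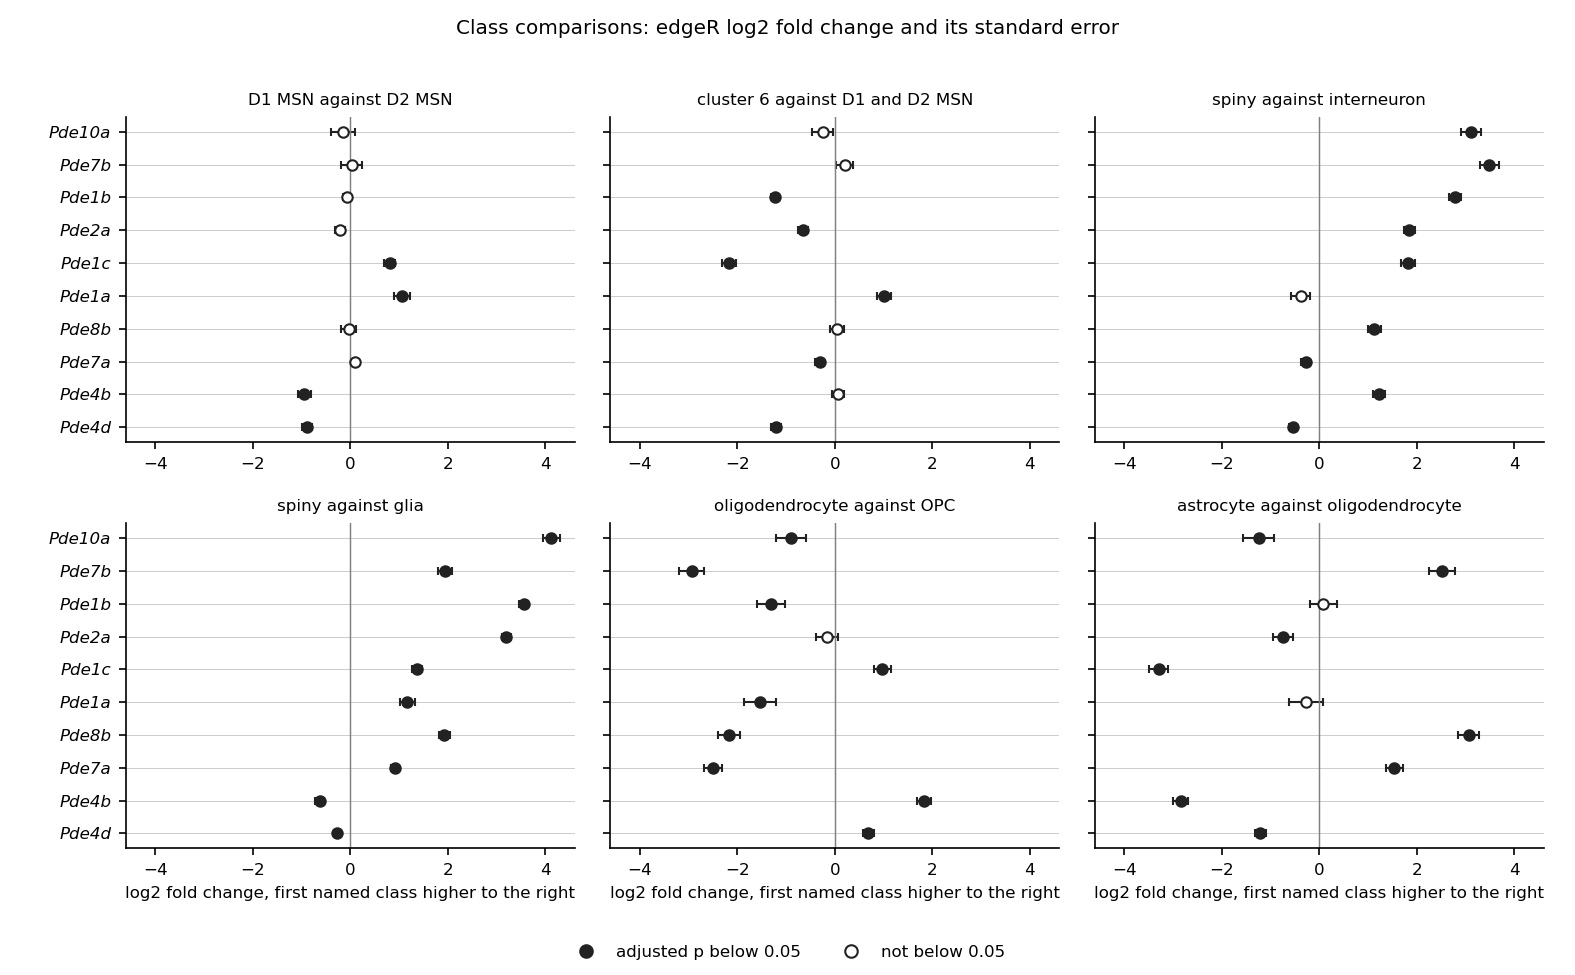
Log2 fold change of each member in 6 class comparisons, with the first named class higher to the right; bars are standard errors from edgeR and filled points passed at an adjusted p below 0.05. Between D1-like and D2-like MSNs 4 members are filled, and the largest values stand in the comparison of MSNs with glia, where Pde10a reached 4.12.

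Free RNA in a droplet library can be counted in nuclei of any class, so Pde10a and Pde7b were set beside Rgs9, a regulator of G protein signalling known from MSNs. The free RNA itself was not measured, so the ratio in D1-like MSNs serves only as a reference for description. The ratio of Pde10a to Rgs9 was 2.61 to 4.75 over the 6 libraries in D1-like MSNs. It was 1.18 to 4.06 in oligodendrocyte-like and 0.273 to 3.27 in astrocyte-like nuclei, not above the MSN range. In OPC-like nuclei it was 5.50 to 11.3, above the D1-like range in every library. The ratio of Pde7b to Rgs9 was 1.28 to 2.30 in D1-like MSNs, 9.23 to 45.1 in astrocyte-like and 13.6 to 33.2 in OPC-like nuclei, but 0.632 to 3.02 in oligodendrocyte-like nuclei. In Drd3-like neurons, which had Rgs9 at 630 ± 54.3 CPM, the ratio was 0.217 to 0.911 for Pde10a and 0.310 to 0.829 for Pde7b, below the D1-like range. The part of free RNA in any of these levels was not tested.

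**Figure D4:**
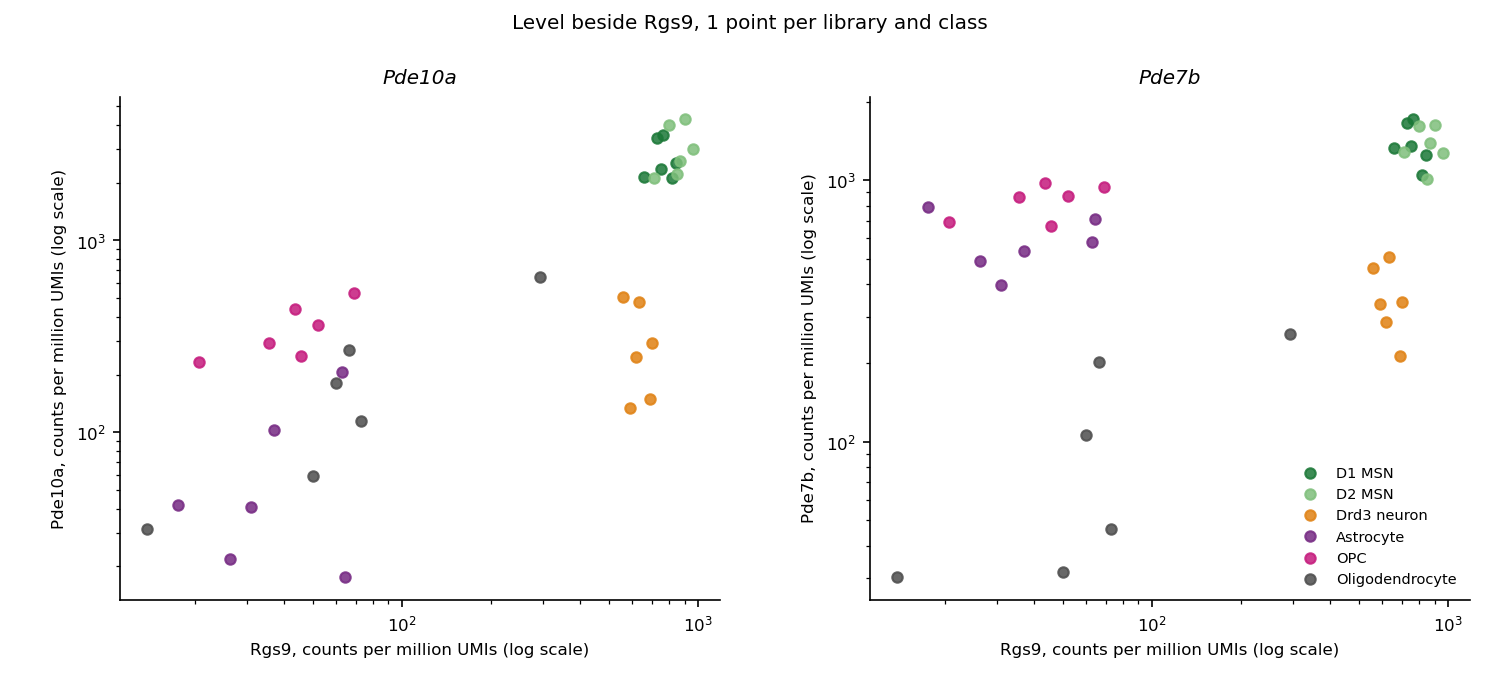
Pde10a and Pde7b (CPM, log scale) against Rgs9 (CPM, log scale) in 6 classes, 1 point per library. OPC-like and astrocyte-like points stand at low Rgs9 with Pde7b of 397 CPM or more, while Drd3-like points stand near the MSN points in Rgs9 and below them in both genes.

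In the oligodendrocyte lineage, mature oligodendrocyte-like nuclei were set against OPC-like nuclei. Pde4b, Pde1c and Pde4d were higher in oligodendrocyte-like nuclei, and 6 members were lower, where 48.6% of genes passed. Pde4b was 1476 ± 420 against 510 ± 57.5 CPM (log2 1.83, SE 0.15, edgeR adjusted p = 6.44e-17), higher in 6 of 6 libraries. Pde1c was 314 ± 74.9 against 200 ± 22.5 CPM (log2 0.98, SE 0.18) and Pde4d 1492 ± 390 against 1107 ± 60.1 CPM (log2 0.69, SE 0.11). Pde7b was 112 ± 97.1 against 835 ± 128 CPM (log2 -2.94, SE 0.26, edgeR adjusted p = 1.1e-14), Pde7a 15.6 ± 11.8 against 116 ± 11.1 CPM (log2 -2.50, SE 0.19) and Pde8b 56.7 ± 53.9 against 248 ± 43.8 CPM (log2 -2.17, SE 0.23). Each of these 3 was lower in 6 of 6 libraries. Pde1a (-1.54, SE 0.33), Pde1b (-1.30, SE 0.29) and Pde10a (-0.90, SE 0.31, edgeR adjusted p = 0.0138) were also lower. The Pde10a call was lost without female pool 1 (-0.59, adjusted p = 0.16), without male pool 1 (-0.76, adjusted p = 0.107), without male pool 2 (-0.79, adjusted p = 0.0552) and in set B alone (-1.02, adjusted p = 0.0533), among 7 of 14 settings. Pde2a did not pass (-0.16, SE 0.23), and its sign differed between set A (-0.56, edgeR adjusted p = 0.0166) and set B (0.45, edgeR adjusted p = 0.349).

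Female pool 2 had only 89 oligodendrocyte-like nuclei, in which all members but Pde1a, Pde1c and Pde7a lay outside the range of the other 5 libraries. Pde4b was 798 CPM there against 1140 to 1861 CPM in the other libraries, and Pde10a was 645 CPM against 31.1 to 270 CPM. The spiny neuron markers Rgs9, Bcl11b, Rarb and Meis2, none at 0, summed to 1018 CPM in these nuclei, against 67.5 to 526 CPM in the oligodendrocyte-like nuclei of the other 5 libraries and 2629 to 3747 CPM in D1-like MSNs. Rgs9 alone ran from 13.8 to 293 CPM in oligodendrocyte-like nuclei. Without female pool 2 the log2 differences between oligodendrocyte-like and OPC-like nuclei were 1.95 for Pde4b, -3.16 for Pde7b and -1.35 for Pde10a (edgeR adjusted p = 7.59e-17, 1.97e-14 and 2.4e-05). The part of MSN RNA in the oligodendrocyte-like levels was not tested.

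Astrocyte-like against oligodendrocyte-like nuclei gave 8 members past the threshold, where 54.6% of genes passed. Pde8b (433 ± 94.4 against 56.7 ± 53.9 CPM, log2 3.06, SE 0.21), Pde7b (584 ± 145 against 112 ± 97.1 CPM, log2 2.52, SE 0.26) and Pde7a (52.5 ± 13.1 against 15.6 ± 11.8 CPM, log2 1.54, SE 0.18) were higher in astrocyte-like nuclei in 6 of 6 libraries. Pde1c (log2 -3.29, SE 0.20), Pde4b (-2.84, SE 0.15) and Pde4d (-1.21, SE 0.11) were lower in 6 of 6. Pde10a (-1.24, SE 0.32) and Pde2a (-0.74, SE 0.21) were lower too, in 5 and 6 of 6 libraries. The 4 spiny neuron markers summed to 537 to 1092 CPM in astrocyte-like nuclei, with a median of 806 against 261 CPM in oligodendrocyte-like nuclei, while Rgs9 alone went the other way (mean 39.8 against 92.7 CPM). The part of MSN RNA in these differences was not tested. Without female pool 2 Pde10a gave -0.80 (edgeR adjusted p = 0.0101) and Pde2a -0.67 (0.00876). Pde1a and Pde1b did not pass.

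The other genes of cyclic nucleotide signalling came from a list of 68 further features, 54 of which passed the filter on low counts. Between D1-like and D2-like MSNs 5 were higher and 3 lower, where 7.39% of all genes tested passed. The phosphodiesterase genes Pde9a (149 against 85.2 CPM, log2 0.83) and Pde11a (105 against 23.2 CPM, log2 2.21) and the adenylyl cyclase Adcy2 (94.5 against 36.2 CPM, log2 1.49) were higher in D1-like MSNs. The soluble guanylyl cyclase subunits Gucy1a1 (227 against 618 CPM, log2 -1.45) and Gucy1b1 (142 against 229 CPM, log2 -0.68), which make cGMP in response to nitric oxide, and the protein kinase A inhibitor Pkia (log2 -0.33) were higher in D2-like MSNs. In cluster 6, 11 were higher and 10 lower than in D1-like and D2-like MSNs, where 21.4% of all genes passed. Among them Akap13 (log2 1.33), Adcy2 (1.37) and Pde4a (0.61) were higher and Gucy1a1 (-1.27), Gucy1b1 (-0.64) and Pde9a (-0.54) lower.

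Against interneurons, 19 of the 54 were higher and 20 lower in MSNs, where 46.4% of all genes passed. Adcy5, the main adenylyl cyclase of the striatum, was 884 against 151 CPM (log2 2.58), with Gucy1b1 (1.65) and Pkig (1.57) beside it, and Adcy6 (-3.30), Adcy8 (-3.52) and Npr2 (-3.66) were lower. Against glia 31 were higher, led by Adcy5 (2.80), Prkar1b (2.95) and Gucy1b1 (1.75), and 16 lower, led by Rapgef3 (-4.79), Akap13 (-3.55) and Pde8a (-4.80). Of all genes 76.0% passed there. Pde8a, the paralogue of Pde8b, ran against it in glia: it was 586 CPM in oligodendrocyte-like, 98.7 in OPC-like and 8.29 in astrocyte-like nuclei. Oligodendrocyte-like against OPC-like nuclei gave 11 higher (Pde8a 2.95, Prkacb 1.13 and Npr1 2.58 on the log2 scale) and 20 lower (Prkg2 -4.72, Gucy1a2 -2.40 and Pkia -2.72). The share over all genes was 48.6%. Astrocyte-like against oligodendrocyte-like nuclei gave 14 higher (Pde9a 3.29, Gucy1b2 5.55 and Rapgef3 1.67) and 17 lower (Pde8a -6.30, Pde3b -2.04 and Prkacb -1.51). Here the share over all genes was 54.6%. The 10 members had a median log2 difference of 1.53 between MSNs and interneurons, against -0.13 for the other 54 genes, and 1.65 against 0.51 between MSNs and glia. Members and list were chosen with earlier results of these data known, so these medians are a description and not a test. Each pathway gene named here passed at an edgeR adjusted p of 0.00729 or less.

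The profiles of the members over the 12 classes were compared by the Pearson correlation of mean log2(CPM + 1), given as a description over classes that share libraries. Pde10a and Pde1b were the most alike pair (r = 0.92), followed by Pde1b and Pde2a (0.84) and Pde10a and Pde2a (0.79). The most opposed pairs were Pde8b and Pde4d (-0.66) and Pde7a and Pde4b (-0.65). Among 7269 other genes with a mean of at least 20 CPM, the most like Pde10a were Ric8b (r = 0.96), Tln2 (0.95) and Atp2b1 (0.94), and the most like Pde7b were Nars2 (0.98), Map2k6 (0.94) and Smad3 (0.91). For Pde1b they were Zfyve28 (0.96), Dtnb (0.95) and Arel1 (0.95), for Pde1c Nsun7 (0.92), Pdzd2 (0.90) and Clrn3 (0.85), and for Pde1a Zc3h14 (0.96), Kdm1a (0.95) and Clstn1 (0.95). For Pde2a they were Kcnh1 (0.96), Nap1l1 (0.95) and Camkv (0.95), and for Pde8b Smpd3 (0.95), Gria2 (0.94) and Ints6 (0.94). Pde4b was closest to Galk2 (0.89), Tmem19 (0.89) and Tstd2 (0.86), Pde4d to Dpy30 (0.81), Pigu (0.79) and Pcsk5 (0.77), and Pde7a to Faxc (0.98), Slc39a14 (0.97) and Hsf2 (0.96).

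The comparison of the sexes was the aim named by the study's title. No member passed the test between female and male pools in any of the 12 classes or over all nuclei. In 13 edgeR fits with the label set as a term, 128 tests of members gave 0 calls, where 0.0419% of genes were called over all nuclei. The share called was 0.0531% in D1-like, 0.0568% in D2-like MSNs and 0.0643% in cluster 6. It was 0.0833% in Drd3-like, 0.103% in Chst9/Grm8-like, 0.0571% in septal-like and 0.0864% in pallidal-like neurons, and 0.130% in Sst/Npy-like and 0.0901% in Pvalb-like interneurons. In glia it was 0.0634% (astrocyte-like), 0.0725% (oligodendrocyte-like) and 0.0749% (OPC-like). Over all nuclei the 10 log2 differences, female minus male, ran from -0.05 to 0.35. In the classes 118 tests gave values from -0.37 to 1.12 with a median of 0.14. The lowest adjusted p was 0.452, and 7 of the 118 tests (5.93%) had an unadjusted p below 0.05, against 5.41% of the 109250 tests of all genes in the classes. DESeq2 also called 0 members in each fit.

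Pde4d in D1-like MSNs, by pool number, was 767, 664 and 719 CPM for females against 644, 594 and 496 CPM for males. The groups did not overlap, and the log2 difference was 0.34 (SE 0.13, unadjusted p = 0.0236, edgeR adjusted p = 0.67), with 0.16 within set A and 0.39 within set B. Pde7b in Chst9/Grm8-like neurons had the lowest p, with 559 ± 15.2 against 402 ± 70.8 CPM (SD, n = 3 pools; log2 0.48, SE 0.15, edgeR adjusted p = 0.452). Of 117 pairs of member and class with a mean of at least 20 CPM, 5 did not overlap between the sexes, and 6.40% of all such pairs of feature and class did not. The 3 highest values, all in oligodendrocyte-like nuclei, each moved by over 1.5 times with 1 pool left out. Pde10a (log2 1.12) gave -0.26 without female pool 2, which had 645 CPM against 31.1 and 270 CPM in the other female pools. Pde7b was 0.43 with the same pool left out, and passed without female pool 1 (1.58, edgeR adjusted p = 0.00846). For Pde7a the log2 difference of 1.11 became 0.53 when female pool 3 was dropped and 0.51 when male pool 1 was. The sex difference in D1-like MSNs minus that in D2-like MSNs was called for 0 members (0.00% of 13642 genes, with 587 at an unadjusted p below 0.05 and 0 members by DESeq2). It was widest for Pde1a, at -0.31 (SE 0.11, unadjusted p = 0.0057, edgeR adjusted p = 0.9995).

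**Figure D5:**
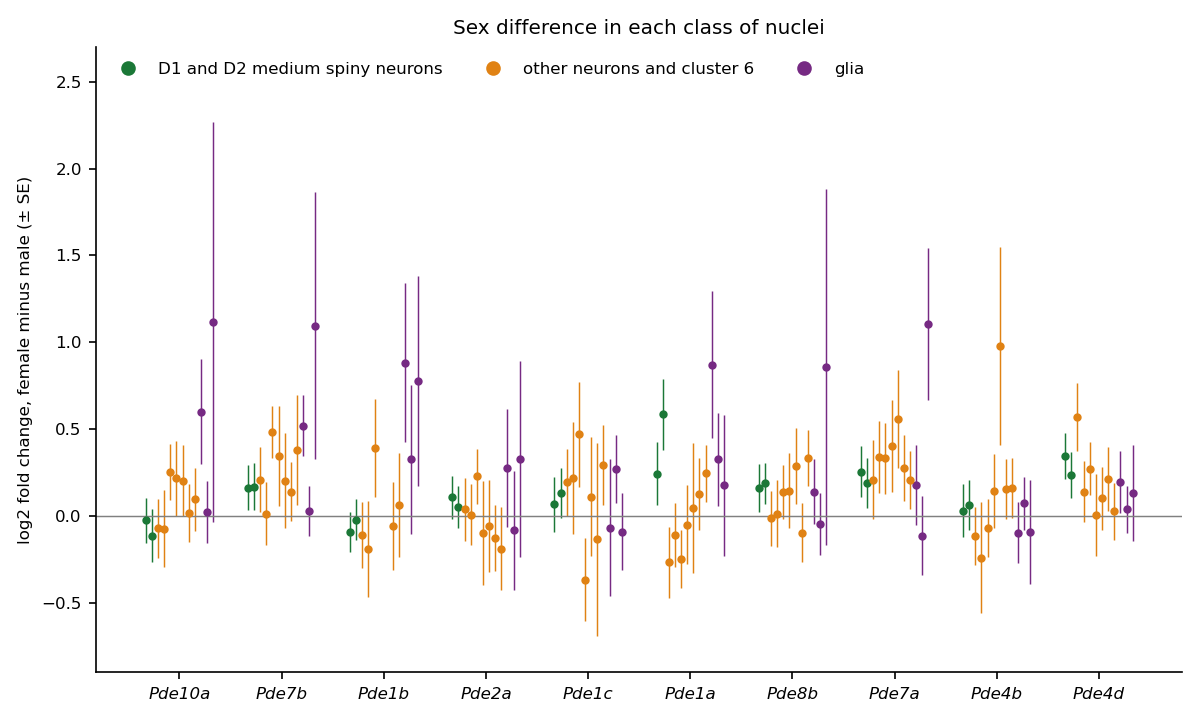
Log2 fold change between female and male pools (female higher above 0) for each member in each class tested; points are edgeR estimates and bars standard errors, green for D1-like and D2-like MSNs, orange for other neurons with cluster 6 and purple for glia. The points lie between -0.37 and 1.12, and the 3 highest, in oligodendrocyte-like nuclei, moved with 1 pool left out (Pde10a to -0.26 without female pool 2).

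The label sets separated the members more than sex did. In 53 of the 117 pairs of member and class every set A library stood above every set B library, and in 0 below, where 24.0% of all pairs of feature and class stood above and 17.2% below. Pde10a did so in 9 of 12 classes. In D1-like MSNs it was 3567 CPM in male pool 1 and 3440 CPM in female pool 3, against 2127 to 2545 CPM in the 4 set B libraries. Pde4b did so in 8 classes and Pde8b in 7, and Pde1b in 1. The labels do not say what separates the sets. The differences between classes given above are within libraries, but the set difference itself varied with class. For Pde10a the ratio of set A to set B ran from 0.94 in septal-like neurons to 5.06 in astrocyte-like nuclei. Some class differences thus varied in size: astrocyte-like against oligodendrocyte-like nuclei gave 1.69 for Pde7b in set A alone and 3.37 in set B alone. Others varied little, such as Pde4b between oligodendrocyte-like and OPC-like nuclei (1.90 and 1.78).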

How the data were processed

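Nuclei from frozen shell punches were profiled with 3' v3.1 droplet kits, per the labels' protocols. The deposited values are UMI counts per gene and barcode, made by the authors with Cell Ranger 4.0.0, per the file headers, on rn6, per the submitters' processing notes. The gene annotation was not stated in the labels or headers. Barcodes with at least 500 UMIs, 300 genes and under 5% mitochondrial UMIs were kept, and the highest doublet scores were removed at 0.8% per 1000 barcodes. Nuclei were clustered (Python 3.11.15, scanpy 1.11.5, leidenalg 0.10.2; 3000 variable genes, 30 components, 20 neighbours, resolution 1, giving 40 clusters) without the genes described. Marker lists named 26364 nuclei (77.0%) by a rule set after the clusters were seen. Members and lists were chosen with earlier results of these data known.

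Counts were summed per class and library and tested with edgeR 4.0.16 in R 4.3.3 (quasi-likelihood, TMM, filterByExpr, Benjamini-Hochberg adjusted p below 0.05), with library as a block between classes and the label set as a term between sexes. DESeq2 1.42.0, other scaling, no filter, a 1000 UMI minimum, doublets kept, each label set alone and each library left out were alternatives. The genes named are all members, at most 3 pathway genes per direction with the smallest adjusted p, and the 3 genes most like each member. On simulated counts the D1 against D2 test recovered 91% and 99% of 100 genes each changed by 1 and 2 on the log2 scale (11788 genes), and the sex test in D1-like MSNs 54% and 92% (13180 genes). Unchanged genes were also called: 21 in the D1 against D2 simulation, beside 91 and 99 recovered, and 16 in the sex simulation, beside 54 and 92. No pair of pools of 1 sex agreed within sampling noise (chi-square per degree of freedom at least 26.3). 1 listed spiny neuron marker is not reported here.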

Additional observations from a re-analysis of the deposited data

Results flagged for a closer look

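In 7 of 120 sets of 6 libraries, 1 library stood far from the others (gap over range above 0.625), and chance flags about 1 in 20 such sets. Female pool 3 had Pde1a at 51.4 CPM in astrocyte-like nuclei, with the nearest library at 20.4 CPM, and Pde1c at 48.6 CPM in Chst9/Grm8-like neurons, with the nearest at 27.8 CPM. Female pool 1 had Pde1b at 63.5 CPM in cluster 6, below the nearest at 85.8 CPM. Male pool 1 had Pde1c at 207 CPM in Sst/Npy-like interneurons, with the nearest at 144 CPM. Female pool 2 had Pde2a at 133 CPM in its 89 oligodendrocyte-like nuclei, with the nearest at 44.4 CPM. Male pool 2 had Pde2a at 130 CPM in septal-like neurons, with the nearest at 105 CPM. Male pool 3 had Pde7b at 1007 CPM in cluster 6, below the nearest at 1618 CPM.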

How the results depend on the processing

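Outcomes of the members were followed in the class comparisons. They were also followed in the 7 sex tests and the Pde1a interaction with an unadjusted p below 0.05. Under the alternatives, 902 of 942 kept their direction and side of the threshold, 23 lost the call, 2 gained it and 15 changed sign. Every changed outcome among these was in a class comparison. The sign changes were in differences that did not pass: Pde7b between D1-like and D2-like MSNs (-0.0057 to 0.036 with a library left out), Pde8b in cluster 6 against MSNs (-0.039 with no filter, -0.013 in set B, -0.040 to 0.083 with a library left out), Pde4b there (-0.012 with no filter, -0.13 in set A, -0.030 to 0.094 with a library left out), Pde2a between oligodendrocyte-like and OPC-like nuclei (0.03 with doublets kept, 0.45 in set B, -0.35 to 0.053 with a library left out), Pde1a between astrocyte-like and oligodendrocyte-like nuclei (0.088 in set B) and Pde1b there (-0.0059 to 0.17 with a library left out). Genes called between D1-like and D2-like MSNs numbered 871, against 217 without the library block and 577 in set A, and 2518 fell to 986 without the block for cluster 6. For sex, 7 genes called over all nuclei became 4 with the replicate number as a block, 17 by DESeq2 and 3 to 11 with a library left out. In D1-like MSNs 7 became 99 with no filter and 1 with the replicate block, and in D2-like MSNs 58 and 2. The interaction gave 2 with no filter and 0 to 5 with a library left out. Members called between the sexes in oligodendrocyte-like nuclei were 0 to 1 with a library left out, the 1 being Pde7b without female pool 1. Pools of the same number did not deviate together (correlations of -0.77, 0.26 and -0.63). Female pool 3 and male pool 1, the set A libraries, did (0.85). Because the label sets weigh on these correlations, they cannot show whether the numbers pair pools. The cause of the changed outcomes was not tested. Depth limits small classes: 4439 genes could be tested between the sexes in Pvalb-like and 6173 in Sst/Npy-like interneurons, where Pde1b could not be, against 13180 in D1-like MSNs.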

Other observations

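A cluster of 501 nuclei that the naming rule left without a class was led by Nts and by the activity-induced genes Fosl2, Fosb, Nr4a3, Nr4a1, Npas4 and Arc. Its Pde10a ran from 2760 through 3637 to 5084 CPM and its Pde7b from 1726 through 2372 to 5527 CPM, each above D1-like MSNs, D2-like MSNs and cluster 6 in 6 of 6 libraries. The Pde7b mean was 2.03 times that of D1-like MSNs. Pde4b was 503 CPM against 265 CPM in D1-like MSNs and higher in 6 of 6 libraries, while Pde1a was 46.0 CPM against 125 CPM and lower in 6 of 6. These are descriptions of a cluster singled out after its values were seen, with no test.

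Committed OPC-like nuclei, 158 in all and as few as 10 in a library, had Pde1c at 532 CPM, above OPC-like nuclei (200 CPM) in 6 of 6 libraries and above oligodendrocyte-like nuclei in 5 of 6. Cholinergic-like nuclei (258, as few as 12 in a library) had Pde4d at 1750 CPM, against 647 CPM in D1-like MSNs, and Pde10a at 370 CPM. Microglia-like nuclei (436, as few as 8 in a library) had Pde7a at 148 CPM, against 15.6 CPM in oligodendrocyte-like nuclei and higher in 6 of 6 libraries. Their Pde4d was 80.0 CPM, against 1492 CPM in oligodendrocyte-like nuclei and lower in 6 of 6 libraries. Another unnamed cluster of 250 nuclei, as few as 11 in a library, had Pde4d at 3153 CPM, against 1739 CPM in Chst9/Grm8-like neurons and higher in 6 of 6 libraries.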
